A study of Mus musculus with 7 samples.

Results

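The egg coat and the sperm-egg interaction genes were examined in mini-oocytes, which are oocyte-like cells made from mouse embryonic stem cells (mESCs) by forced expression of oocyte transcription factors. The 10 genes are the 3 zona pellucida genes Zp1, Zp2 and Zp3, the 3 oocyte-secreted protein genes Oosp1, Oosp2 and Oosp3, the cortical granule protease gene Astl, and the egg plasma membrane genes Izumo1r, Cd9 and Cd81. They were chosen for what their products do and were found by their symbols. Each symbol matched 1 row of the 55364 genes in the table, and all 10 were among the 21780 genes that reached 1 TPM in 2 or more of the 7 libraries and were tested. TPM corrects the reads of a gene for its exon length and for library size, so levels of different genes can be compared.

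The zona pellucida is the glycoprotein coat around the mammalian egg. ZP1, ZP2 and ZP3 are made by the growing oocyte, polymerise into filaments outside the cell and carry the site at which sperm bind. FIGLA, a basic helix-loop-helix protein, binds E-boxes in zona promoters together with a ubiquitous E-protein and is needed for their transcription. ASTL (ovastacin) is stored in cortical granules and cleaves ZP2 after fertilisation, which ends sperm binding. IZUMO1R (JUNO) is the egg receptor for sperm IZUMO1, and the tetraspanins CD9 and CD81 shape the egg membrane at which the gametes fuse. OOSP1, OOSP2 and OOSP3 are secreted proteins of the oocyte that belong to the same fold family and lie side by side on chromosome 19.

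RNA-seq libraries of mini-oocytes were compared in 3 groups. The 4F line carried Nobox, Figla, Lhx8 and Tbpl2, with 2 libraries at day 7 and 3 at day 21 of induction. The 8F line carried the same 4 genes and also Sohlh1, Sub1, Dynll1 and Stat3, with 2 libraries at day 21 and none at day 7. Both lines came from BVSC H18, a female hybrid mESC line, and every library carries Figla as a transgene, so reads of the transgene and of the endogenous gene cannot be told apart. The factors were fused to a destabilisation domain and held stable with Shield1, which was left out of fresh medium from day 12. All cells were kept with stem cell factor (SCF) and the ROCK inhibitor Y-27632 on poly-L-ornithine and laminin, without ovarian somatic cells. The 8F line also carried an Npm2-mCherry reporter. A larger pool of cells was lysed per sample at day 7 than at day 21, so day and pool size cannot be told apart. The sources do not say whether replicates were separate inductions, and p-values measure the spread between these libraries, which may be technical.

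From the steps between low TPM values, between 9051761 and 17190271 reads were estimated on genes per library. The 10 most abundant genes took 28.5% and 31.8% of the TPM at day 7 and between 10.2% and 14.0% at day 21. Values had at most 9 decimals in the 4F columns and at most 17 in the 8F columns, so how a column was written and which factors were used cannot be told apart. Oocyte marker genes other than the 10 were present: Gdf9, an oocyte growth factor, stood at 196 and 303 TPM at day 7 and rose to between 3952 and 4975 TPM in 4F-mini-oocytes at day 21. Of 9 such oocyte genes 8 rose over time in 4F-mini-oocytes, where 25.3% of all genes tested rose and 15.3% fell. Between 8F and 4F at day 21, 5 of the 9 were called, where 8.37% of all genes tested were. Of these, 2 were higher and 3 lower in 8F. Of 7 pluripotency genes tested 3 rose over time in 4F-mini-oocytes (Pou5f1, Esrrb and Dppa5a) and 1 fell (Zfp42). Pou5f1 had 24.4 and 30.1 TPM at day 7 and between 154 and 267 TPM in 4F-mini-oocytes at day 21. Summed over the 8 listed, the level was 250 and 397 TPM at day 7. At day 21 it was between 880 and 1075 TPM in 4F-mini-oocytes, and 1052 and 1213 TPM in 8F-mini-oocytes. Most of each sum came from Dppa5a, which had 164 and 301 TPM at day 7. At day 21 Dppa5a had between 548 and 832 TPM in 4F-mini-oocytes, and 1076 and 875 TPM in 8F-mini-oocytes. Nanog was at 0 in every day 21 library, and Sox2 reached at most 3.59 TPM. Summed over 13 cumulus and granulosa genes, the level was between 5.94 and 26.0 TPM in every library. The filter was passed by 6 of the 13. Of these, only Nr5a2 was called over time in 4F-mini-oocytes (log2 fold change 1.53, limma, adjusted p = 0.0324). Nr5a2 rose from 2.46 and 3.73 TPM at day 7 to between 7.32 and 18.2 TPM at day 21. Amh was at 0 in all 4F libraries, while 8F-mini-oocytes had low values of it (0.103 and 0.318 TPM). In those 8F libraries 1 read on 1 kb gives 0.172 and 0.177 TPM, so the Amh values rest on very few reads. Foxl2 had 2.69 and 1.49 TPM in 8F-mini-oocytes and at most 0.721 TPM in any 4F library. At day 21 that difference was not called (1.34, limma, adjusted p = 0.111). In this bulk RNA, fewer cells of a type and less RNA per cell cannot be told apart.

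E-boxes, the class of site that FIGLA binds, are shown first, because Figla was among the factors of both lines. Which E-box of a gene FIGLA binds was not tested. RefSeq promoter windows of build GRCm38.p6, from 250 bases before to 50 bases after a transcription start, held 8 windows of 7 of the genes. They are those of Zp3, Oosp1, Oosp2, Izumo1r, Cd9, Cd81 and, with a pair of starts, Astl. Windows of Zp1, Zp2 and Oosp3 were not used here. Stretches of 30 bases, from 74 to 45 bases upstream of the start, are printed 5′ to 3′ on the gene's own strand with E-boxes (CANNTG) in capitals. Upstream holds for the RefSeq start of the window only. By the GENCODE gene spans given below, the stretches of Oosp1, Izumo1r and the downstream Astl start lie inside the annotated gene. The stretch of Zp3 lies at chr5:135980031-135980060 on the plus strand, that of the downstream Astl start at chr2:127341562-127341591 on the plus strand, that of Oosp1 at chr19:11691096-11691125 on the minus strand, that of Izumo1r at chr9:14903812-14903841 on the minus strand and that of Oosp2 at chr19:11660604-11660633 on the minus strand. The stretches of Cd9 at chr6:125494805-125494834 on the minus strand and of Cd81 at chr7:143052676-143052705 on the plus strand belong to genes used in many tissues and are shown for contrast.
Zp3: gagggaagcagagggaattCAGGTGggagg
Astl: gtggttgggaggctgCAGGTGtgggctgga
Oosp1: ctacttagttactccCACCTGcaggtcatc
Izumo1r: ctactggcggctctccaCACCTGtagctca
Oosp2: aagaaaaatgaaggCAGCTGagcacgggct
Cd9: gCAGGTGggccggggggcggggtcggcatc
Cd81: gggcaccccgcgggcggaaggcggggccag

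CAGGTG, or CACCTG when read on the other strand, began 55 bases upstream of the start of Zp3, 59 upstream in Oosp1 and in the downstream Astl window, 57 upstream in Izumo1r and 73 upstream in Cd9. The downstream Astl window held further copies 109 and 83 bases upstream, and the upstream Astl window held no E-box. Oosp2 had an E-box of other letters, CAGCTG, 60 bases upstream, and the only E-box of Cd81 was a CAGCTG 145 bases upstream. Zp3 also held CACGTG 181 bases upstream and CAGATG 134 bases upstream, both outside the printed stretch. Oosp1 and Cd9 held further E-boxes too. Counting a start between 75 and 50 bases upstream, CAGGTG or CACCTG was present in 5 of the 8 windows and in 2.12% of all 32851 RefSeq windows. That interval was set after the sequences of the genes had been read, and the count is a description. Over all 250 upstream bases the same letters were in 5 of the 8 windows and in 17.2% of all windows, and any CANNTG was in 7 of the 8 and in 66.2%. A match gives letters only, not a bound site. The letters are thus shared by Zp3, Astl and Oosp1, which were higher at day 21 than at day 7, by Izumo1r, which overlapped between days, and by Cd9, which was lower.

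**Figure D1:**
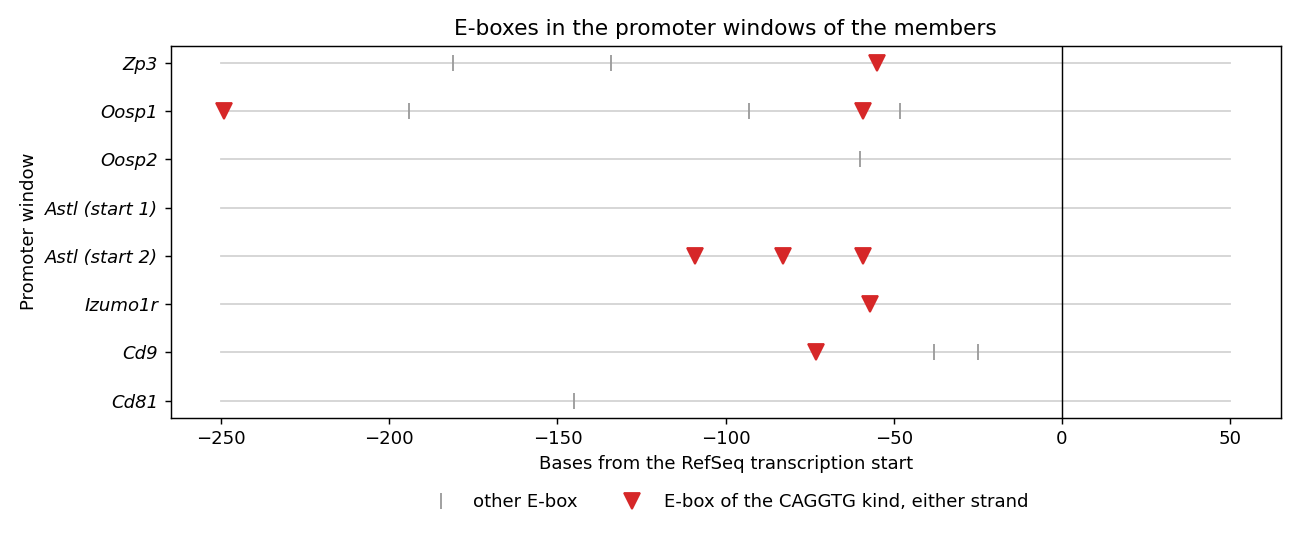
Positions of E-boxes in the promoter windows, with the distance from the RefSeq transcription start in bases on the horizontal axis and 1 window per line. Red triangles mark CAGGTG or CACCTG and grey bars mark other E-boxes, and in Zp3, Oosp1, the downstream Astl start, Izumo1r and Cd9 a red triangle lies between 73 and 55 bases upstream.

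Zona pellucida genes were among the most abundant transcripts of mini-oocytes at day 21, and all 3 rose from day 7 to day 21 in 4F-mini-oocytes. Zp3 (chr5:135980099-135988624, plus strand, mm10), which encodes a core filament subunit, had 801 and 1207 TPM in the day 7 libraries, 6011, 5689.5 and 6871 TPM in the 4F libraries at day 21, and 6220.5 and 6073 TPM in the 8F libraries. All day 21 libraries lay above both day 7 libraries, and the 4F and 8F libraries overlapped. From day 7 to day 21 the mean rose from 1004 ± 288 (SD, n = 2) to 6190.4 ± 611 TPM (SD, n = 3) in 4F-mini-oocytes, a log2 fold change of 2.65 with SE 0.21 on the log2(TPM + 1) scale (limma, adjusted p = 0.000214). In the order of all genes Zp3 moved from place 88 and place 55 at day 7 to between 8 and 10 in the 5 day 21 libraries.

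Zp2 (chr7:120126772-120145291, minus strand), the subunit that ASTL cleaves, had 1668 and 2012 TPM at day 7, 5617, 5163 and 6218 TPM in 4F-mini-oocytes at day 21 and 4301 and 4169 TPM in 8F-mini-oocytes. The 3 groups did not overlap, with the 8F libraries between day 7 and the 4F libraries. The rise in 4F-mini-oocytes was 1.62 on the log2 scale (SE 0.16, adjusted p = 0.000468). Zp2 held places 43 and 36 at day 7 and places 9 to 16 at day 21.

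Zp1 (chr19:10914287-10920632, minus strand), whose product links the filaments, was the least abundant zona gene in every library. It had 539 and 517 TPM at day 7, 1366, 1470.1 and 1408 TPM in 4F-mini-oocytes at day 21 and 1114 and 1093 TPM in 8F-mini-oocytes. As with Zp2, the 8F libraries lay between the other groups without overlap. Its rise of 1.42 on the log2 scale in 4F-mini-oocytes had the smallest SE of the 10 genes (0.096, adjusted p = 0.000132).

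**Figure D2:**
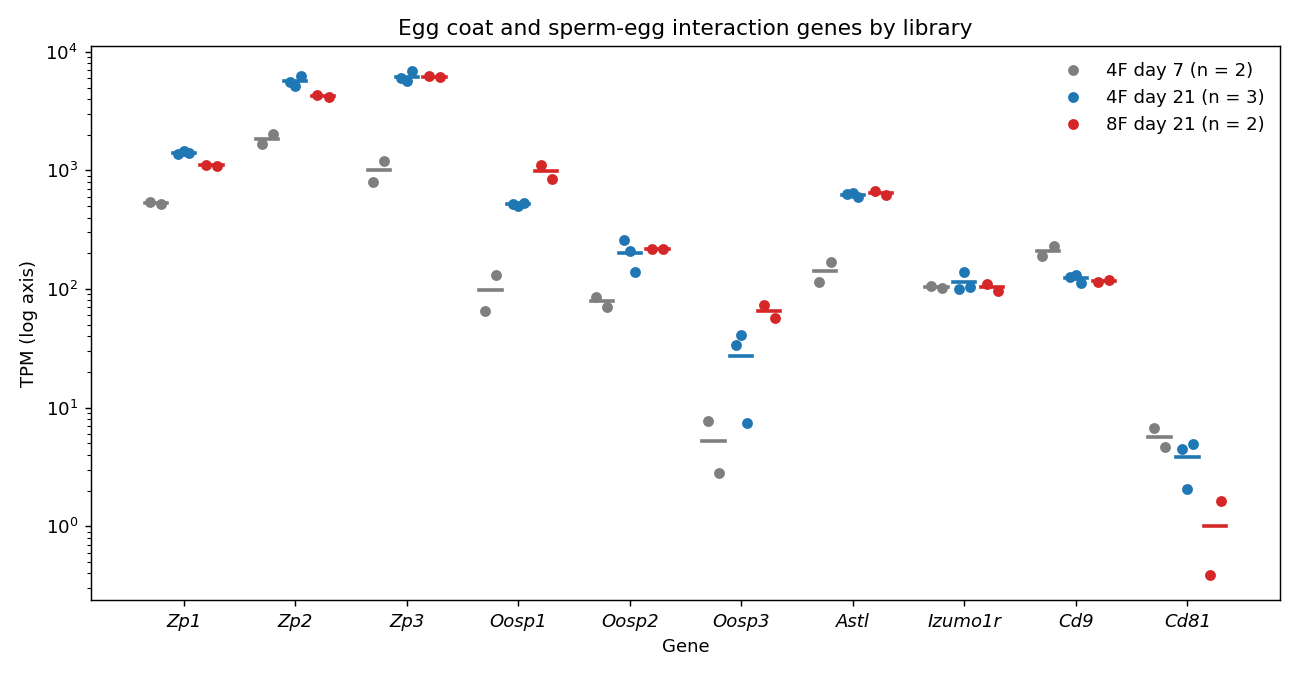
TPM of each gene on a log axis in the 7 libraries, with a point for each library, a bar at the group mean and colours for the 3 groups. Zp1, Zp2, Zp3, Oosp1, Oosp2 and Astl stand higher in all day 21 libraries than at day 7, Cd9 stands lower, and Izumo1r overlaps between all groups.

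The zona genes did not rise in equal measure, and their proportions shifted from Zp2 to Zp3. Of the summed TPM of the 3 genes, Zp3 took 26.6% and 32.3% at day 7, 46.3%, 46.2% and 47.4% in 4F-mini-oocytes at day 21, and 53.5% and 53.6% in 8F-mini-oocytes. Zp2 took 55.5% and 53.8% at day 7, 43.2%, 41.9% and 42.9% in 4F-mini-oocytes at day 21, and 37.0% and 36.8% in 8F-mini-oocytes. Zp1 took 17.9% and 13.8% at day 7, and between 9.57% and 11.9% at day 21. These shares do not depend on the scaling between libraries, and for Zp2 and Zp3 the 3 groups did not overlap.

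Written as a ratio within a library, Zp3 to Zp2 was 0.480 and 0.600 at day 7, 1.07, 1.10 and 1.105 in 4F-mini-oocytes at day 21, and 1.46 and 1.45 in 8F-mini-oocytes. Per base of exon, the day 7 libraries thus had more Zp2 than Zp3, and the day 21 libraries more Zp3 than Zp2. Counted in reads, Zp2 stayed above Zp3 in every group, at 52.8% against 37.2% of the zona reads in 8F-mini-oocytes, and the shift between the groups had the same direction. The ratio of Zp2 to Zp1 overlapped between groups, at 3.09 and 3.89 at day 7, 3.51 to 4.42 in 4F-mini-oocytes at day 21, and 3.86 and 3.81 in 8F-mini-oocytes. With 3 libraries against 2, an exact two-sided permutation test cannot give a p below 0.2, which is the value for Zp3 to Zp2 between days and between factor sets, so these ratios stand as a description.

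**Figure D3:**
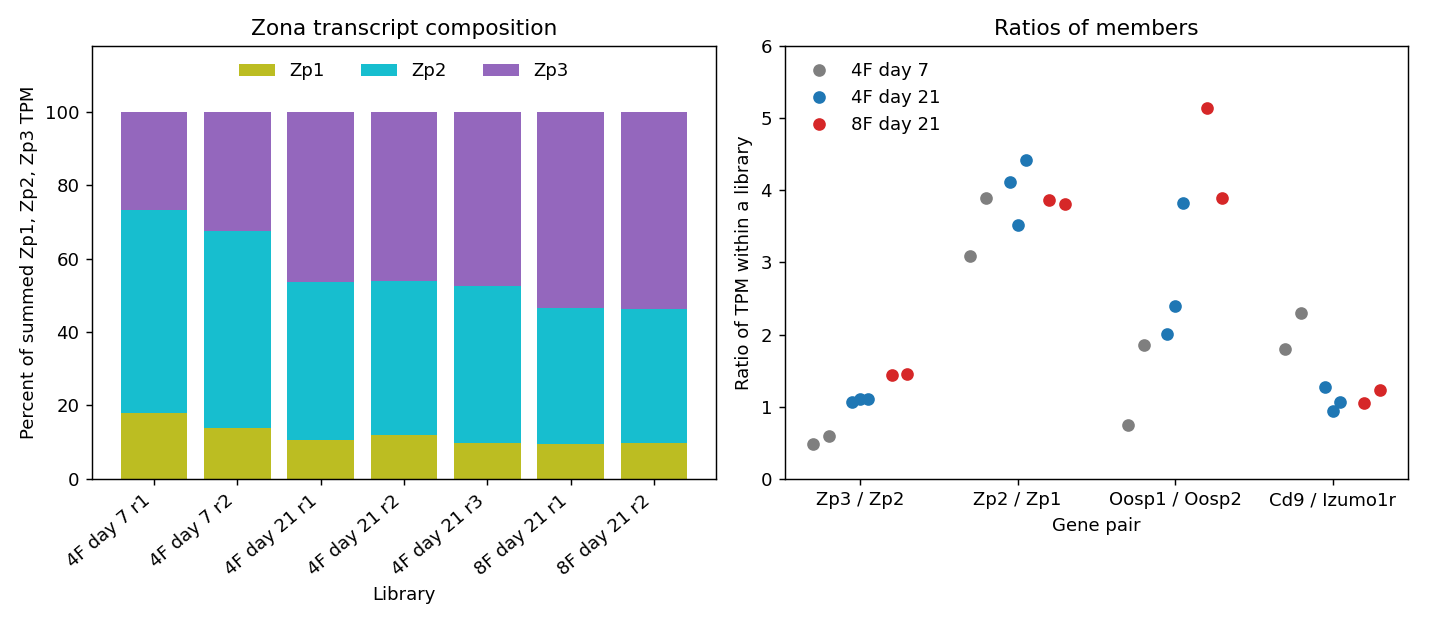
Left, stacked bars of the percent that Zp1, Zp2 and Zp3 take of their summed TPM in each library. Right, ratios of TPM between pairs of the genes within a library, with a point for each library, where Zp3 to Zp2 runs from 0.480 in a day 7 library to 1.46 in an 8F library and Zp2 to Zp1 overlaps between groups.

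Astl (chr2:127338639-127357651, plus strand) rose with the zona genes from day 7 to day 21. It had 114 and 170.0 TPM at day 7, 635, 645 and 592 TPM in 4F-mini-oocytes at day 21 and 671 and 621 TPM in 8F-mini-oocytes. The groups at day 21 overlapped and lay above day 7. The log2 fold change over time was 2.16 in 4F-mini-oocytes (SE 0.17, adjusted p = 0.00023). Zona TPM per Astl TPM was 26.4 and 22.0 at day 7, 20.5, 19.1 and 24.5 in 4F-mini-oocytes at day 21, and 17.3 and 18.3 in 8F-mini-oocytes, the last group below the others.

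The Oosp genes differed from each other in level and in how they stood between 4F and 8F. Oosp1 (chr19:11667460-11691150, minus strand) had 65.0 and 131 TPM at day 7, 517, 500.4 and 535 TPM in 4F-mini-oocytes at day 21 and 1120.2 and 839.7 TPM in 8F-mini-oocytes. The groups did not overlap, and the 8F libraries were the highest. Its rise over time in 4F-mini-oocytes was 2.47 on the log2 scale (SE 0.29, adjusted p = 0.000906).

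Oosp2 (chr19:11647279-11660559, minus strand) had 86.4 and 70.5 TPM at day 7, 257, 209 and 139.6 TPM in 4F-mini-oocytes at day 21 and 218 and 216 TPM in 8F-mini-oocytes. All day 21 libraries lay above both day 7 libraries, with a log2 fold change of 1.32 in 4F-mini-oocytes (SE 0.25, adjusted p = 0.00657). That call was lost after quantile normalisation (0.69, adjusted p = 0.0691) and in a voom fit of the estimated reads (0.82, adjusted p = 0.0762). The 8F libraries lay within the range of the 4F libraries at day 21.

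Oosp3 (chr19:11697055-11711874, plus strand) was the lowest of the 3, at 7.74 and 2.79 TPM at day 7, 33.6, 41.3 and 7.39 TPM in 4F-mini-oocytes at day 21 and 72.6 and 56.9 TPM in 8F-mini-oocytes. Replicate 3 of 4F-mini-oocytes at day 21 had the lowest Oosp2 and Oosp3 of its group and the highest Oosp1, and for Oosp3 it fell within the range of day 7. The log2 fold change over time was 2.00 in 4F-mini-oocytes (SE 0.73, 95% interval 0.25 to 3.75, adjusted p = 0.0694), and without that library it was 2.73 (adjusted p = 0.0066). Estimated reads on Oosp3 were 25 and 12 at day 7 and 25.5 in that library, against 348 and 265 in the 8F libraries. A gene annotated on the opposite strand, the processed pseudogene Gm19224, shares 57 exonic bases (6.93%) with Oosp3, and since no strand option is stated for the counting, reads there cannot be assigned. Gm19224 was listed at 0 in both day 7 libraries, at 5.65, 5.95 and 0.451 TPM in 4F-mini-oocytes at day 21 and at 25.2 and 15.7 TPM in 8F-mini-oocytes, and its part in the Oosp3 values was not tested. The ratio of Oosp1 to Oosp2 was 0.752 and 1.86 at day 7, 2.01, 2.39 and 3.83 in 4F-mini-oocytes at day 21 and 5.15 and 3.89 in 8F-mini-oocytes, with no overlap between groups.

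The egg membrane genes did not follow the egg coat. Izumo1r (chr9:14885814-14903949, minus strand) had 105 and 101 TPM at day 7, 99.4, 139 and 104 TPM in 4F-mini-oocytes at day 21 and 109 and 97.0 TPM in 8F-mini-oocytes. All 3 groups overlapped. The log2 fold change over time in 4F-mini-oocytes was 0.13 with a 95% interval from -0.26 to 0.52 (adjusted p = 0.568), and between 8F at day 21 and 4F at day 7 it was -0.0033 with an interval from -0.43 to 0.43 (adjusted p = 0.996). Both moved with the scaling, to -0.48 and -0.55 after quantile normalisation, neither past the threshold. Relative to the median gene, which stood at 0.17 over time in 4F-mini-oocytes, the gene was thus close to the middle of the table, at percentile 48.8 of all fold changes.

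Cd9 (chr6:125460266-125494791, minus strand) had 189.5 and 232 TPM at day 7, 126, 131 and 112 TPM in 4F-mini-oocytes at day 21 and 115 and 119.9 TPM in 8F-mini-oocytes. Both day 7 libraries lay above all day 21 libraries. It fell by 0.77 on the log2 scale over time in 4F-mini-oocytes (SE 0.13, adjusted p = 0.00389), and was the only one of the 10 past the threshold in that direction there. The size depended on the scaling, at -1.11 after median-of-ratios rescaling, -1.36 after quantile normalisation and -1.32 in a voom fit of the estimated reads. Markers of epithelial and trophoblast cells moved the same way: all 6 tested of 8 fell, where 15.3% of all genes tested did. Summed over the list, their level was 1286 and 1851 TPM at day 7, 93.9 to 204 TPM in 4F-mini-oocytes at day 21 and 73.5 and 77.4 TPM in 8F-mini-oocytes. Among them Krt8, a simple epithelial keratin, fell from 660 and 863 TPM at day 7 to between 36.4 and 128 TPM in 4F-mini-oocytes at day 21. The trophoblast markers of the list differed at day 7. Cdx2 and Elf5 were at 0 in both day 7 libraries, while Hand1 had 12.0 and 63.6 TPM and Krt7 had 24.3 and 25.1 TPM. Hand1 and Krt7 were at 0 in every 4F library at day 21. CD9 is also made by epithelial cells, and the part of such cells in its fall was not tested. Of the Cd9 exons, 218 bases (10.7%) overlap Gm26728 on the opposite strand. Cd9 transcripts share at least 95% identity over at least 100 bases with those of 10 other genes. The longest of these matches, 218 bases at 100% identity, is to Gm26728 and has the length of that overlap, so it is not counted as a separate copy. Where the other matches lie elsewhere in the genome, uniquely mapped reads may miss part of Cd9. No other of the 10 genes examined had such a match.

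Cd81 (chr7:143052739-143067934, plus strand) was low in every library, at 6.73 and 4.62 TPM at day 7, 4.45, 2.08 and 4.97 TPM in 4F-mini-oocytes at day 21 and 0.387 and 1.63 TPM in 8F-mini-oocytes. The 4F groups overlapped, and the 8F libraries were below all others. Estimated reads were between 26 and 76 in the 4F libraries and 6.5 and 26.5 in the 8F libraries, where 3 reads would give 0.179 and 0.185 TPM, a limit that covers counting error only, since amplified copies of a molecule were not collapsed. In 4F-mini-oocytes the log2 fold change over time was -0.51 with an interval from -1.71 to 0.69 (adjusted p = 0.463).

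Taking the genes in order of level within 4F-mini-oocytes at day 21, the order ran Zp3, Zp2, Zp1, Astl, Oosp1, Oosp2, Cd9, Izumo1r, Oosp3 and Cd81. Among neighbours in that order, Zp3 overlapped with Zp2 and Cd9 with Izumo1r. In 8F-mini-oocytes Oosp1 stood above Astl, at 980.0 ± 198 against 646 ± 35.4 TPM (SD, n = 2), and overlapped with Zp1. At day 7 the order was Zp2, Zp3, Zp1, Cd9, Astl, Izumo1r, Oosp1, Oosp2, Cd81 and Oosp3, where Izumo1r overlapped with Oosp1, Oosp1 with Oosp2, and Cd81 with Oosp3. Together the 10 genes made 0.358% and 0.445% of the TPM at day 7, 1.47%, 1.40% and 1.60% in 4F-mini-oocytes at day 21, and 1.39% and 1.33% in 8F-mini-oocytes.

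Over time in the 4F line, 7 of the 10 genes passed FDR 0.05, where 40.6% of all genes tested did. Of these, 6 were higher at day 21, where 25.3% of all genes were higher, and Cd9 was lower, where 15.3% were. The same 7 genes were those whose groups did not overlap, as was true upward of 33.8% and downward of 22.9% of all genes tested. The median log2 fold change of the 10 was 1.52, against 0.17 for all genes tested. Of all genes called, 62.3% were higher at day 21, 48.6% were higher after median-of-ratios rescaling, which moved the median of all genes to -0.06, and 37.7% were higher in the voom fit of the estimated reads, which moved it to -0.32. Under each scaling tried the 7 genes kept their direction, and in that voom fit Zp1 stood at 0.89 and Zp2 at 1.07.

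At day 21, none of the 10 genes passed FDR 0.05 in limma between the 8F and the 4F line, where 8.37% of all genes tested did. An unadjusted p under 0.05 was found for 4 of the 10, where 22.3% of all genes had one, and voom fits of the estimated reads called 2 of them, or 3 with median-of-ratios library sizes. Oosp1 had the smallest unadjusted p among those higher in 8F, with a log2 difference of 0.91 (SE 0.29, 95% interval 0.22 to 1.59, adjusted p = 0.118). It passed the threshold in 6 of 19 other settings, among them both voom fits (1.05, adjusted p = 0.00679, and 0.92, adjusted p = 0.0131). Zp1 differed by -0.36, lower in 8F (interval -0.59 to -0.13, adjusted p = 0.0754), and Zp2 by -0.42 (interval -0.79 to -0.04, adjusted p = 0.185), and each passed in 2 of 19 other settings. Cd81 differed by -1.28 (interval -2.48 to -0.08, adjusted p = 0.196), and Oosp3 by 1.50 (interval -0.25 to 3.25, adjusted p = 0.296).

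These 5 genes are those whose 4F and 8F libraries did not overlap, with Oosp1 and Oosp3 higher in 8F, as 24.1% of all genes were, and Zp1, Zp2 and Cd81 lower, as 19.8% were. The other 5 overlapped. Zp3 differed by -0.0057 (interval -0.50 to 0.49), Astl by 0.05 (-0.36 to 0.46), Cd9 by -0.06 (-0.37 to 0.24), Izumo1r by -0.13 (-0.52 to 0.26) and Oosp2 by 0.15 (-0.45 to 0.74). With 2 and 3 libraries these intervals still hold differences of up to 0.74 on the log2 scale.

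**Figure D4:**
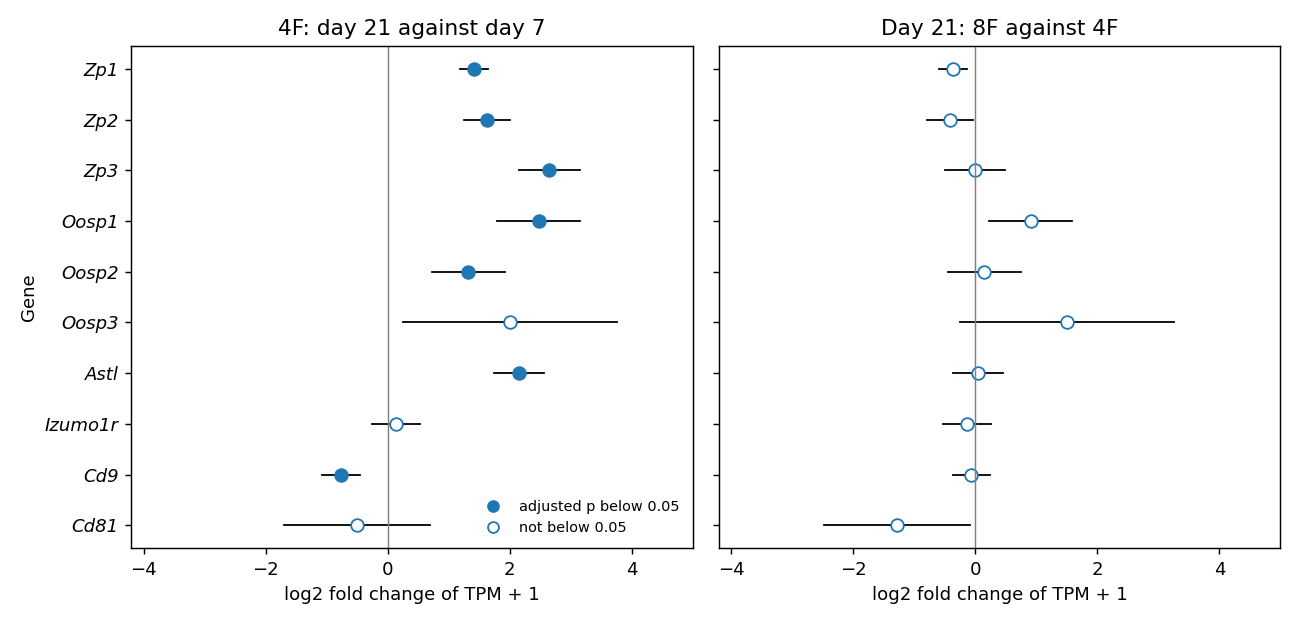
Log2 fold changes of TPM + 1 with 95% intervals from limma, for day 21 against day 7 in 4F-mini-oocytes on the left and for 8F against 4F at day 21 on the right. Filled points have an adjusted p below 0.05, which holds for 7 genes on the left and for 0 on the right, where the intervals of Zp1, Zp2, Oosp1 and Cd81 leave out 0.

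Day and factor set differ together between 8F at day 21 and 4F at day 7 and cannot be told apart. Set against these day 7 libraries, which both comparisons with day 7 share, 8F-mini-oocytes at day 21 had 9 of the 10 genes past FDR 0.05, where 37.2% of all genes were. Of these, 7 were higher, where 24.2% of all genes were, and Cd9 and Cd81 were lower, where 13% were. The same 9 did not overlap between these groups, as 43.9% of all genes did not upward and 28.4% downward. Log2 differences were 1.06 for Zp1, 1.21 for Zp2 and 2.64 for Zp3, beside 1.42, 1.62 and 2.65 in 4F-mini-oocytes. For Oosp1, Oosp2 and Oosp3 they were 3.38, 1.46 and 3.50, beside 2.47, 1.32 and 2.00. Oosp3 (adjusted p = 0.0152) lost its call without replicate 2 at day 7 and without either 8F library. Cd81 differed by -1.79 (adjusted p = 0.043) and kept its call in 8 of 18 other settings, with differences between -3.11 and -0.83 and adjusted p between 0.0235 and 0.246.

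Genes that work with the 10 were read from lists of partners. Over all genes tested, 25.3% rose and 15.3% fell over time in 4F-mini-oocytes, and 8.37% were called between 8F and 4F. Of 10 partners of the egg membrane proteins (integrins, tetraspanins and immunoglobulin proteins), 3 rose and 4 fell over time in 4F-mini-oocytes, with a median log2 fold change of -0.58, and none was called between 8F and 4F. Itga6, a laminin-binding integrin subunit, rose from 26.8 and 29.0 TPM at day 7 to 96.1, 94.2 and 88.2 TPM at day 21 (1.70, adjusted p = 0.000116), and Itga9 rose by 1.74 (adjusted p = 0.00305). Itga3 (-3.69, adjusted p = 0.00282) and Itgav (-2.29, adjusted p = 0.00192), other integrin alpha subunits, fell along with Cd9.

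Izumo1r is held in the membrane by a GPI anchor. Of 18 genes of GPI anchor synthesis and transfer, 3 rose and 4 fell, with a median of 0.04. The share called was near that of all genes tested (40.6%), of which 25.3% rose and 15.3% fell. Pigf, which acts in the addition of ethanolamine phosphate, rose by 1.48 (adjusted p = 0.0015), and Pigt, a transamidase subunit that attaches the anchor, fell from 57.6 and 36.0 TPM at day 7 to between 5.63 and 11.5 TPM in 4F-mini-oocytes at day 21 (-2.33, adjusted p = 0.00277).

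ASTL leaves the egg by cortical granule exocytosis, and of the 12 genes of that list that were tested 6 rose and 2 fell, with a median of 0.52. Of all genes tested, 25.3% rose and 15.3% fell. The fusion ATPase gene Nsf rose by 2.13 (adjusted p = 7.04e-05) and the vesicle GTPase gene Rab3a by 2.23 (adjusted p = 0.000122), while the membrane syntaxin gene Stx4a fell by 1.75 on the log2 scale (adjusted p = 0.000307). Calr, the chaperone calreticulin, had 428 and 515 TPM at day 7, 1459, 1559 and 1487 TPM in 4F-mini-oocytes at day 21 and 662 and 649.7 TPM in 8F-mini-oocytes. It rose over time in 4F-mini-oocytes by 1.67 (adjusted p = 0.000134). Calr was the only gene of the list called between 8F and 4F, where 8.37% of all genes tested were, and it was lower in 8F (-1.19, adjusted p = 0.00502). With either 8F library left out, that difference did not pass the threshold (-1.21 and -1.18).

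Zona proteins are glycosylated and then cut by a furin-type protease before they enter the coat. Of 10 glycosylation genes 2 rose and 4 fell, where 25.3% of all genes tested rose and 15.3% fell. Those that rose were C1galt1c1 (2.51, adjusted p = 0.0154) and Fut8 (0.53, adjusted p = 0.0230). Among those that fell were B4galt1 (-2.65, adjusted p = 0.00561) and C1galt1 (-2.12, adjusted p = 0.00309), which add galactose. The 4 proprotein convertase genes had 2 that rose and none that fell, and Furin rose by 1.78 (adjusted p = 0.00141). None of the genes of either list was called between 8F and 4F, where 8.37% of all genes tested were.

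Of the 8 genes for E-box factors and their ID inhibitors, 4 were called between 8F and 4F at day 21, where 8.37% of all genes tested were. From day 7 to day 21 in 4F-mini-oocytes 5 of the 8 were called, 1 higher (Figla) and 4 lower. Of all genes tested, 25.3% rose and 15.3% fell. Figla had 504 and 429 TPM at day 7, 741, 726 and 816 TPM in 4F-mini-oocytes at day 21 and 320.4 and 326 TPM in 8F-mini-oocytes, and was lower in 8F (-1.23, adjusted p = 0.00435). Id1, which binds E-proteins and keeps them from DNA, had 176 and 231 TPM at day 7. In 4F-mini-oocytes at day 21 it had 54.6, 70.4 and 107 TPM, a log2 fold change of -1.43. In 8F-mini-oocytes it had 664 and 519 TPM, higher than in 4F at day 21 (2.96, adjusted p = 0.00508). The Figla difference between 8F and 4F lost its call without either 8F library (-1.22 and -1.24), and that of Id1 without the first (2.79). Tcf3, an E-protein gene, was lower in 8F (-0.90, adjusted p = 0.0289) and Id3, another ID gene, was higher (2.05, adjusted p = 0.0387). Both of these calls were lost without either 8F library, with adjusted p between 0.17 and 0.27 for Tcf3 and between 0.249 and 0.256 for Id3, and over all genes such fits left 86 and 98 calls of 1822. Of 19 other settings, Tcf3 kept its call in 13 and Id3 in 11, and the day 21 4F libraries whose absence also ended a call were replicates 2 and 3 for Tcf3 and replicates 1 and 2 for Id3.

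Genes for the sperm partners of these proteins were low. Of 16 such genes 8 passed the filter and 2 were listed at 0 in every library, and the highest value of any of them was 54.6 TPM, for 4930451I11Rik, below Izumo1r in every library. Over time in 4F-mini-oocytes 3 of the 8 were called higher and 1 lower, where 25.3% of all genes tested were higher and 15.3% lower.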

How the data were processed

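RNA-seq was measured in 7 libraries of mini-oocytes, grouped by the sample labels. The authors deposited TPM. They had clipped reads (Trim Galore), mapped them (HISAT2, mm10), taken out rRNA (bedtools), retained unique alignments and assigned them to GENCODE genes with featureCounts, which gave reads on several genes a fraction for each and was run with no stated strand option. Unique mapping lowers genes with near copies. No column was left unused (0), and no pair of libraries held the same values. The paper names a pair of NovaSeq models with different read lengths and does not say which library was run on which. Whether instrument and read length differed between the groups is thus not known, and their part was not tested.

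Tests used limma (version 3.58.1, R version 4.3.3) on log2(TPM + 1) for the 21780 genes that reached 1 TPM in 2 libraries: lmFit and eBayes with trend over 3 groups, two-sided, with Benjamini-Hochberg adjustment and FDR 0.05. The pseudocount of 1 understates changes of low genes. The authors' edgeR test needs counts, which TPM are not. The code was first run on simulated reads with a fixed dispersion, which does not give the error rate of the test in these data. Reads were estimated from TPM steps and GENCODE exon lengths (98.1% of genes matched), and 99.0% to 99.6% of low values were multiples of a sixth of a read within 0.02 reads. Coordinates are mm10, promoters RefSeq GRCm38.p6, and near copies came from BLAST+.

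The 10 genes and all lists were chosen with earlier results of these data known. By rule, the 10 are named in every comparison, and other genes come from up to 4 genes of each list by mean TPM, up to 4 by size of change past FDR 0.05 without overlap, and the 8 protein-coding genes of at least 10 TPM nearest to the zona profile. Cdx2, Elf5, Amh, Nanog, Sox2, Gm19224 and Gm26728 were added after their values were seen.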

Additional observations from a re-analysis of the deposited data

How the results depend on the processing

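The analysis was repeated with pseudocounts of 0.1 and 5, no filter or 5 TPM, median-of-ratios rescaling, quantile normalisation, no trend, array weights, 2 groups at a time, a block on replicate number, voom on estimated reads and each library left out. For the 10 genes, 520 of 567 values kept direction and call, 15 lost a call, 12 gained one and 20 changed sign, none of the last called, and the cause was not tested. Izumo1r over time in 4F was -0.21 after rescaling, -0.48 after quantile normalisation, -0.41 and -0.22 in the voom fits and -0.0195 to 0.22 with a library left out. For 8F against 4F, Zp3 was 0.0092 after rescaling, 0.14 and 0.0071 in the voom fits and -0.064 to 0.072 with a library left out (0.0116 without 8F replicate 2). In that comparison, a library left out gave -0.098 to 0.34 for Oosp2, -0.0059 to 0.11 for Astl and -0.22 to 0.0163 for Izumo1r, voom gave 0.0166 for Izumo1r and 0.077 for Cd9, and quantile normalisation 0.0035 for Cd9. For 8F against day 7, Izumo1r was -0.089 to 0.082 with a library left out (0.0260 without day 7 replicate 1), -0.33 after rescaling, -0.55 after quantile normalisation and -0.39 and -0.34 in the voom fits, none called. There Zp1 stood at 0.68 and Zp2 at 0.80 by voom, and Oosp2 at 0.91 and Cd9 at -1.35 after quantile normalisation, all still called.

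Libraries with the same replicate number did not deviate together (r between -0.037 and 0.011). Deviations were taken from the group mean, so in a group with only a pair of libraries they are mirror images of each other. The check thus cannot tell whether libraries with the same number shared an induction or a preparation. With the replicate block, which leaves 4F replicate 3 at day 21 out of the comparison, genes called went from 8847 to 7241 over time in 4F, from 1822 to 164 between 8F and 4F, and from 8103 to 7037 for 8F against day 7. Zp3 between 8F and 4F was then 0.072 and Oosp2 -0.098.

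Genes called between 8F and 4F also went to 3572 with array weights, to 994 without the trend, and to between 86 and 2231 with a library left out, the lowest without an 8F library (86 and 98). The others had 6472 to 8379 over time in 4F and 3642 to 8377 for 8F against day 7. Of the 10 genes, 2 were called between 8F and 4F with array weights and by voom, 3 by voom with median-of-ratios library sizes, 1 with only the 2 groups, and 0 to 1 with a library left out. For the other comparisons a library left out gave 7 to 8 and 7 to 9.

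Zona shares counted in reads, not per length, were 67.9%, 58.4% and 52.8% for Zp2 and 17.8%, 31.0% and 37.2% for Zp3 at day 7, in 4F and in 8F at day 21, with Zp1 at 10.0% in 8F. Of Zp2 and Zp3 alone they were 65.0%, 47.8% and 40.8%, and 35.0%, 52.2% and 59.2%. Without a library, Zp1 ranged over 13.8% to 17.9%, 10.1% to 11.2% and 9.57% to 9.64%, Zp2 over 53.8% to 55.5%, 42.4% to 43.1% and 36.8% to 37.0%, and Zp3 over 26.6% to 32.3%, 46.2% to 46.8% and 53.5% to 53.6%. The log2 of Zp3 to Zp1 ranged over 0.57 to 1.22, 2.05 to 2.21 and 2.47 to 2.48, and of Zp3 to Zp2 over -1.06 to -0.74, 0.12 to 0.14 and 0.53 to 0.54. The 10 genes made 0.577%, 1.67% and 1.57% of the TPM outside the 10 highest genes, 1.34% in 4F and 1.24% in 8F after rescaling, and 0.358% to 0.445%, 1.43% to 1.53% and 1.33% to 1.39% without a library. Of the 8 genes nearest to the zona profile, 1 was shared when Pearson correlation was used.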

Other observations

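The mean profile of Zp1, Zp2 and Zp3 over the 7 libraries was compared with those of 8251 protein-coding genes of at least 10 TPM, by the distance between log2(TPM + 1) values centred for each gene. The 8 nearest were Tdrd5, Wdr20, Kif20a, Supv3l1, Smu1, Ccdc186, Nars and Sh3rf1, at distances from 0.133 to 0.222. Tdrd5, a Tudor domain gene of the germline, had 106 and 125 TPM at day 7, 449, 429.9 and 464 TPM in 4F-mini-oocytes at day 21 and 366 and 391 TPM in 8F-mini-oocytes. The zona genes themselves were farther from their own mean, with Zp2 at place 113, Zp1 at place 481 and Zp3 at place 1560, and Astl stood at place 399. The order is a description over 7 libraries of 3 groups.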
